A study of Mus musculus with 2 samples.

Results

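Among mouse bone marrow stem and progenitor cells profiled by CITE-seq, which reads antibody tags and transcripts from the same cell, 596 of the 3986 cells analysed (15.0%, 95% interval 13.9% to 16.1%) had CD150 tag counts under a limit, CD48 tag counts over a limit and no detected transcript of Flt3 or Dntt. They are called the Flt3-negative CD48-high cells here. The limits were set within each library: CD150 tags under the 75th percentile, CD48 tags above the 25th percentile, 0 UMIs (unique molecular identifiers, each standing for 1 captured transcript) of Flt3 and 0 of Dntt. The library whose barcodes end in suffix 1 gave 86 of its 1497 cells (5.74%, 4.62% to 7.05%), and the library of suffix 2 gave 510 of its 2489 cells (20.5%, 18.9% to 22.1%). The tag limits alone held 2527 cells, of which 653 had 0 Flt3 UMIs, and the Dntt rule removed 57 of those. Unless another gate is named, the cells are compared with the 1468 cells of the same tag gate that had 2 or more Flt3 UMIs, called Flt3-high cells, 703 and 765 in the libraries of suffix 1 and 2. Values are given in that library order throughout.

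CD150 and CD48 belong to the SLAM family of receptors and are used to divide the LSK compartment of bone marrow, the lineage-negative cells that carry Sca-1 and c-Kit and contain the blood stem cells. Stem cells carry CD150 and little CD48, and CD48 appears as cells become multipotent progenitors. Among the CD48-positive progenitors, those with the receptor tyrosine kinase Flt3 are known for lymphoid priming, and those without CD150 or Flt3, often named MPP3, are known for myeloid output, with early transcription of the neutrophil granule enzymes. Flt3 and Dntt, the terminal transferase of lymphoid progenitors, both chose the cells here, so their absence is no result.

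The 2 samples were LSK cells sorted by flow cytometry from C57BL/6JRj mice, one from young animals of 3 to 5 months and one from old animals of 22 to 28 months, with 1 library for each age. The animals of an age were pooled, and the labels name no engineered allele or treatment. The labels do not pair a barcode suffix with an age, so no value is assigned to an age, and with 1 library per age a difference between libraries has no replicate. Gates were compared within each library with no test across samples, and the 95% intervals given cover counting error only, with UMIs and cells taken as independent.

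The matrix held 4688 cells and 31053 genes, and no barcode was shared by the libraries. After removal of cells with 10% or more mitochondrial UMIs or with 1500 or fewer detected genes, and of cells without tag values, the libraries held 27073429 and 43434366 UMIs. The Flt3-negative CD48-high cells had a median of 13861 and 14045 UMIs, against 17575 and 20004 in the Flt3-high cells, and the mitochondrial share was alike, 5.78% and 5.97% against 5.78% and 5.77%. A rule of 0 UMIs selects shallower cells, so the part of this depth gap that the rule made and the part that the cells brought cannot be told apart. A doublet caller marked 5 and 32 of the kept cells (0.328% and 1.26%), of which 1 was a member, and these were kept. Markers of T and NK cells stood at 6 and 54 UMIs in all members, with Cd3e, Cd3g, Trbc1 and Cd8a at 0, and those of macrophages at 42 and 95 UMIs. Markers of late neutrophils reached 47.1 and 10.7 CPM (UMIs of a gene per 1000000 UMIs) for the list, with Ly6g, Cd177, Mmp8 and Retnlg at 0 and 54.1% of the UMIs of the first library in 1 cell. Immunoglobulin transcripts filled most of 7 members, which are treated separately.

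Within the shared tag limits, the cells carried less CD48 tag and more CD150 tag than the Flt3-high cells in both libraries. Their median CD48 tag count was 440 (95% interval of the median 348 to 544) and 135 (122 to 157), against 739 (700 to 774) and 590 (556 to 620) in the Flt3-high cells. Their median CD150 tag count was 13 (9 to 18) and 28 (21 to 34), against 4 (3 to 4) and 5 (5 to 5). Both tags were used to draw the gate, but the 2 groups shared its limits, so the members lay closer to both limits than the Flt3-high cells in each library. CLCA3A1, a surface protein tagged through an anti-PE antibody, had a median of 9 (6 to 12) and 30 (26 to 35) tags in the members and 7 (6 to 7) and 8 (7 to 9) in the Flt3-high cells. The intervals of the members and the Flt3-high cells met at 6 to 7 tags in the first library and were apart in the second. Tag counts listed as unmapped, read here as assigned to no antibody, were lower in the members, 37 (30 to 40) and 16 (15 to 18) against 51 (48 to 54) and 29 (28 to 31).

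The limits themselves fell at very different tag counts in the libraries. In the first, the CD150 limit lay at 40 tags and the CD48 limit at 224. In the second, they lay at 407 and 42. The cells nearest the limits had 38 CD150 tags inside and 40 outside in the first library and 401 and 407 in the second, and for CD48 they had 225 inside and 224 outside, and 43 and 42. A member of the second library could therefore have fewer CD48 tags than a cell excluded from the first, and the same gate name covers different tag counts.

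**Figure D1:**
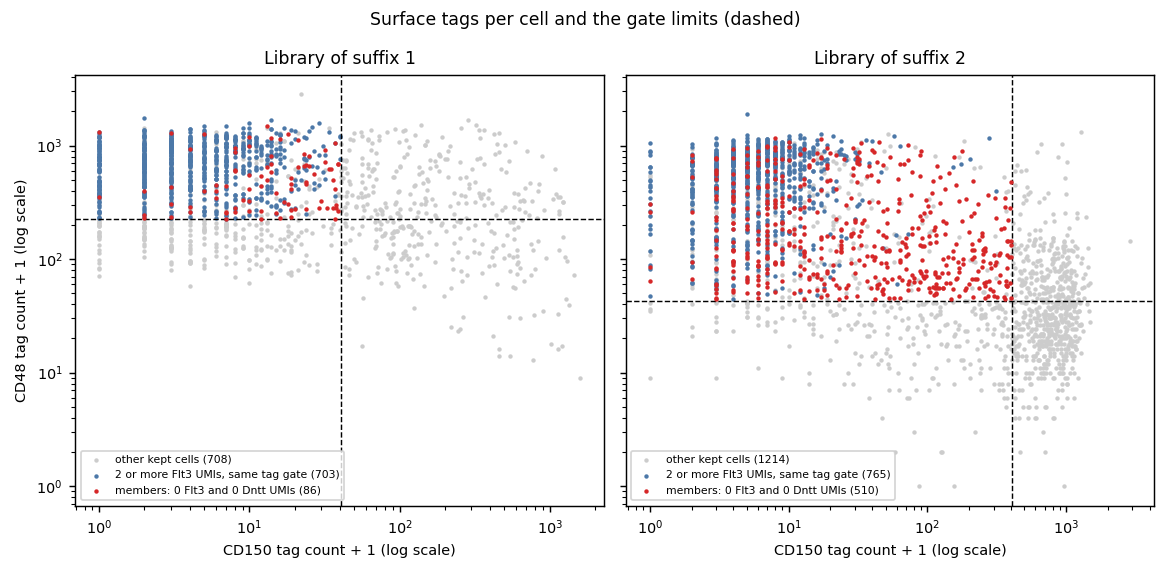
CD48 tag count against CD150 tag count of every analysed cell, each plus 1 on log axes, with 1 panel per library and the gate limits dashed. Members fill the upper left region together with the Flt3-high cells, and lie on average lower in CD48 (medians 440 and 135) than those (739 and 590).

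The transcripts given as markers of these cells, Cd48, Cd34 and Mpo, did not set them apart as a group. Cd48 was at 77.1 (62.8 to 93.8) and 72.1 (66.4 to 78.2) CPM in the members and at 102 (97.1 to 108) and 174 (167 to 180.1) CPM in the Flt3-high cells, a ratio of 0.755 (0.610 to 0.924) and 0.415 (0.379 to 0.454). It was thus lower in the members in both libraries, and 32 of 86 and 160 of 510 members held a Cd48 UMI. Cd34, a sialomucin lost from the most dormant stem cells, was at 449 and 319 CPM against 609 and 559.8 CPM, a ratio of 0.737 (0.677 to 0.802) and 0.569 (0.545 to 0.594), and 82 and 436 members held it.

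Mpo encodes myeloperoxidase, the main enzyme of the primary granules of neutrophils. It was at 469.8 (433 to 509) and 161 (153 to 170.4) CPM in the members and 105 (99.7 to 110.4) and 401 (391 to 411) CPM in the Flt3-high cells, so that it was higher in the members in the first library (ratio 469.8 over 105, 4.48) and lower in the second (0.403). Only 16 members of the first library held Mpo, with 609 UMIs, of which 540 (88.7%) came from 2 cells. In the second library 118 members held 1307 UMIs. Against the other gates of cells without Flt3 and Dntt, Mpo was higher in the members: 2.70 and 0.847 CPM in CD48-low cells and 31.3 and 3.55 CPM in CD150-high CD48-high cells. Without their 2 highest cells the members stood at 56.2 and 117 CPM, so the size of the first-library gaps rests on 2 cells. The levels of Cd48, Cd34 and Mpo therefore go against a reading of the gate as one myeloid-primed population, and the cells are described by their rule.

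Across all genes, 8436 reached 10 CPM in the members or in the Flt3-high cells in both libraries. A gene is called higher or lower where the ratio of CPM, with 10 CPM added to each side, passed 1.5-fold in the same direction in both libraries. By this rule 115 genes (1.36% of those tested) were higher and 93 (1.1%) lower in the members, Flt3 and Dntt among the latter, and 5 genes passed the fold in opposite directions. The median log2 ratio over all tested genes was 0.00. Among the lists, the largest counts of genes called higher were those of the stem cell list (9) and the B and plasma cell list (4), and of genes called lower those of the G2 and mitosis list (16) and the early lymphoid list (7). A gene under 10 CPM in one group was tested only through the other, so counts and medians over the tested genes of a list describe the genes that passed this filter.

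Of the 26 genes of the stem cell list, 17 were tested, 9 were higher and 0 were lower, with a median log2 ratio of 0.81. Procr, the endothelial protein C receptor EPCR and a stem cell surface marker, was at 70.97 and 95.1 CPM against 31.5 and 34.9 CPM, a ratio of 2.25 (1.78 to 2.83) and 2.72 (2.44 to 3.03). Gata2, a transcription factor of stem cells and of early erythroid and mast cell progenitors, was at 80.998 and 139.9 CPM against 34.6 and 38.3 CPM, a ratio of 2.34 (1.88 to 2.89) and 3.65 (3.31 to 4.03). For each of these genes both libraries of the members lay above both libraries of the Flt3-high cells. Apoe, the lipid carrier apolipoprotein E, showed the largest mean log2 ratio of the list, 2.91, with 295 and 438 CPM against 33.9 and 45.5 CPM, a ratio of 8.71 (7.59 to 9.97) and 9.63 (8.90 to 10.4), and 60 and 430 of the members held it. Sult1a1, a sulfotransferase, was at 10.8 and 111 CPM against 3.70 and 10.6 CPM, so that its level in the members also differed widely between the libraries. Other genes of the list called higher included Fgd5 (a marker gene of stem cells), Pdzk1ip1, Mllt3 (a maintenance factor of stem cells) and Esam (an adhesion molecule of stem cells). With the cells thinned to 9000 UMIs, 6 genes of the list were higher, and Procr, Fgd5 and Mllt3 lost their calls, as did Zfpm1 of the erythroid and megakaryocyte list. Hlf, a transcription factor of stem cells, was at 435 and 252 CPM against 353 and 130.3 CPM, and missed the fold in the first library.

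Of the erythroid and megakaryocyte list 3 of 12 tested genes were higher, Itga2b, Pf4 and Zfpm1, with a median log2 ratio of 0.65 over the 12. Itga2b and Pf4 were tested only because the members passed 10 CPM. Itga2b, the integrin CD41 of megakaryocytes and early progenitors, was at 32.4 and 48.3 CPM against 7.40 and 14.7 CPM, a ratio of 4.38 (2.99 to 6.31) and 3.29 (2.80 to 3.87). Pf4, the platelet factor 4 chemokine, was at 22.4 and 72.98 CPM against 7.19 and 8.94 CPM, and Zfpm1, the GATA cofactor FOG1, at 70.2 and 91.01 CPM against 40.8 and 42.7 CPM. Cpa3, a carboxypeptidase of mast cells, was the 1 tested gene of the 11 of the basophil and mast cell list, at 20.1 and 34.2 CPM against 1.75 and 6.81 CPM, and it was tested only because the members passed 10 CPM. Slc18a2, the vesicular monoamine transporter, was at 60.2 and 76.3 CPM against 16.1 and 17.3 CPM, and Trim47, a ubiquitin ligase, at 42.4 and 82.98 CPM against 11.9 and 12.5 CPM. In all of these the members of both libraries lay above the Flt3-high cells of both.

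Of 20 tested genes of the early lymphoid list 7 were lower, 1 was higher, and the median log2 ratio was -0.36. Satb1, a chromatin organiser of lymphoid specification, was at 33.2 and 19.8 CPM against 162 and 152 CPM, a ratio of 0.205 (0.148 to 0.278) and 0.130 (0.110 to 0.153). Wfdc17 was at 58.6 and 27.2 CPM against 273 and 207 CPM, and Notch1, the receptor that starts T cell development, at 20.8 and 17.7 CPM against 58.8 and 45.1 CPM. The others were Il12a, Cd52, Lck and Cnn3. Ly6d, a surface protein of B cell progenitors, was the 1 called higher, at 21.6 and 29.8 CPM against 1.89 and 3.55 CPM, and it lost the call when 7 cells rich in immunoglobulin transcripts were left out. Emb, the adhesion molecule embigin, was at 174 and 119 CPM against 402 and 381 CPM, and it was 1 of the 2 genes of the homing and adhesion list (15 tested) called lower, with Cd53. Irf8, the transcription factor of monocyte and dendritic lineages, was at 23.1 and 12.2 CPM against 48.9 and 93.9 CPM and was the 1 gene called among 9 tested myeloid transcription factors. It lost the call with the cells thinned to 9000 UMIs (mean log2 ratio -1.08) and with the 50th percentile for both tags (-0.39). The call was also lost with a stricter cell filter (-1.25) and against Flt3-high cells with 0 Dntt UMIs (-0.99). Further genes among the 12 with the lowest ratios were Cd69, an activation marker, at 28.5 and 14.9 CPM against 103 and 67.5 CPM, Ncf1, a subunit of the phagocyte oxidase, at 10.8 and 7.04 CPM against 47.8 and 44.2 CPM, and the chemokines Ccl3, at 10.8 and 10.6 CPM against 54.5 and 43.6 CPM, and Ccl9, at 30.9 and 22.5 CPM against 61.1 and 116 CPM. In each of these genes the members lay below the Flt3-high cells in both libraries. The rule of 0 Dntt UMIs applied to the members but not to the Flt3-high cells, so these differences may follow in part from it. The comparison with Flt3-high cells of 0 Dntt UMIs is given below.

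Mitotic genes were lower in the members, with 16 of 20 tested G2 and mitosis genes called lower and a median log2 ratio of -0.84, but only 2 of 20 S phase genes, Rrm1 and Gins2. Mki67, the proliferation antigen Ki-67, was at 94.9 and 115 CPM against 226 and 206 CPM, and Top2a, the topoisomerase of dividing cells, at 144 and 210.05 CPM against 365 and 375 CPM. When every cell was first thinned to 9000 UMIs and the Flt3 and Dntt rule was then applied, 0 of the 20 G2 and mitosis genes were called. By the summed S phase and G2 and mitosis lists, 29.1% (19.8% to 39.9%) and 36.1% (31.9% to 40.4%) of members lay above the median of their tag gate, against 54.5% (50.7% to 58.2%) and 62.4% (58.8% to 65.8%) of Flt3-high cells. With the cells above that median left out of both groups, 88 of 8406 tested genes were higher and 85 lower. Of these, 60 and 41 were shared with the comparison of all cells. Then 8 stem cell genes were higher and 5 lymphoid genes lower.

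Most of these calls were lost when the Flt3-high cells were limited to the 568 that, like the members, had 0 Dntt UMIs. Against these 27 genes were higher and 13 lower, 25 and 13 of them shared with the comparison above. Apoe was the 1 stem cell gene left among the calls, and Itga2b, Cpa3, Slc18a2 and Trim47 stayed higher (mean log2 ratios 2.25, 0.90, 1.21, 0.91 and 1.13). Satb1, Wfdc17, Emb and Top2a stayed lower (-1.29, -1.73, -0.92 and -0.69). Procr and Gata2 lost their calls. So did Pf4 and Sult1a1, although their mean log2 ratios were still 1.09 and 1.28. On the lower side Notch1, Il12a, Cd52, Lck, Cnn3, Irf8, Cd69, Ccl9 and Mki67 were no longer called, while Ccl3 and Ncf1 were. The mean log2 ratios of Cd69 and Ccl9 were then -0.63 and -0.95.

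**Figure D2:**
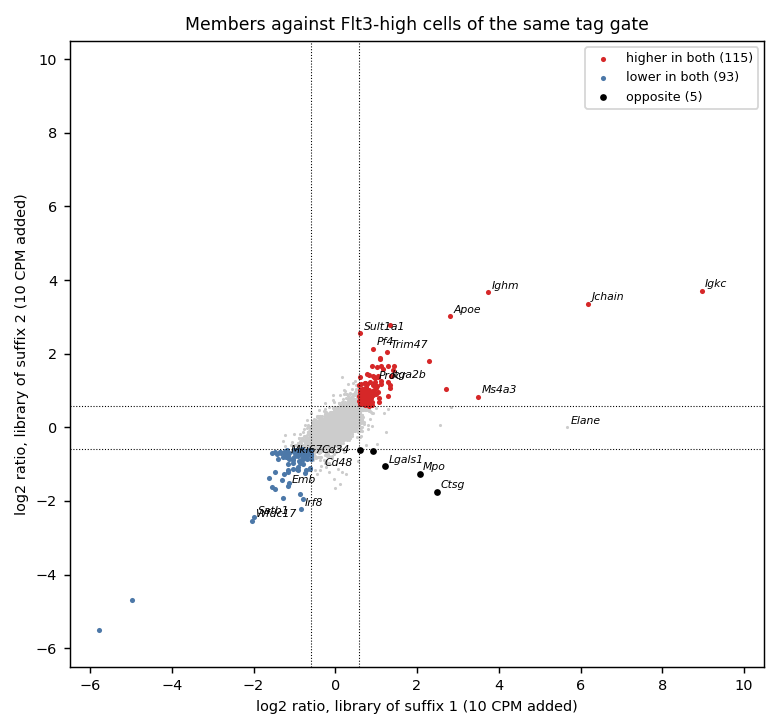
Each point is 1 of the 8436 tested genes, with its log2 ratio of CPM (10 added) between Flt3-negative CD48-high cells and Flt3-high cells in the library of suffix 1 on the horizontal axis and of suffix 2 on the vertical axis, and dotted lines at 1.5-fold. The 115 red genes are higher and the 93 blue genes lower in both libraries, and Mpo and Ctsg are among the 5 black genes that lie on opposite sides.

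Within the tag gate, cells without Dntt could also be ordered by their Flt3 UMIs (0, 1, 2, 3 to 4, and 5 or more), which places the members at the low end of a series. The classes held 86, 81, 87, 85 and 74 cells in the first library and 510, 244, 117, 139 and 66 in the second. Apoe stood in this order at 295, 136, 84.9, 53.4 and 32.9 CPM in the first library and 438, 257, 126, 66.5 and 48.4 CPM in the second. Itga2b stood at 32.4, 20.4, 16.4, 14.4 and 4.79 CPM in the first library and 48.3, 39.3, 36.1, 21.9 and 7.003 CPM in the second. For both genes, as counted, each class lay below the one before it in both libraries. Emb ran the other way, at 174, 169.97, 225, 256 and 341 CPM in the first library and 119, 163, 188, 304 and 386 CPM in the second. Satb1 did too, at 33.2, 26.6, 64.9, 81.6 and 98.6 CPM in the first library and 19.8, 33.6, 56.6, 73.4 and 94.9 CPM in the second. For these the first class, that of the members, was at or next to the lowest. Procr stood at 70.97, 67.4, 67.8, 64.3 and 58.9 CPM in the first library and 95.1, 77.2, 72.2, 53.95 and 30.6 CPM in the second, a much narrower range in the first library than in the second. Mpo had no common order, at 469.8, 179, 111, 55.6 and 65.03 CPM in the first library and 161, 163, 183, 618 and 753 CPM in the second. With the classes set on cells thinned to 9000 UMIs, Mpo stood at 181, 114, 61.5, 41.9 and 14.3 CPM in the first library and 170.4, 276, 200.6, 179.6 and 150.3 CPM in the second, where it no longer rose with Flt3. Procr then stood at 56.4, 49.96, 62.6, 74.1 and 75.3 CPM in the first library, no longer falling with Flt3, and at 99.2, 81.2, 83.8, 68.5 and 6.54 CPM in the second, whose last class held 17 cells. Deeper cells reach higher Flt3 classes at the same Flt3 level, so the classes share depth as well as Flt3.

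The granule and early myeloid list gave 1 gene called higher of 15 tested, Ms4a3, and none lower, with a median log2 ratio of 0.31. Without the cells above the cell cycle median, 0 were higher and 3 lower (Mpo, Plac8 and Clec12a), and with 1 tag limit for both libraries Plac8, Clec12a and Prss57 were lower and Ms4a3 higher. With the cells thinned to 9000 UMIs, Elane and Ms4a3 were higher and 0 were lower. Ms4a3 lost its call against the Flt3-high cells with 0 Dntt UMIs, with a mean log2 ratio of 1.90. For several of its genes the libraries differed in direction, and in some of them few cells held most UMIs. Ctsg, the granule protease cathepsin G, was at 261 and 86.3 CPM in the members against 38.5 and 316 CPM in the Flt3-high cells (log2 ratios 2.48 and -1.76), and only 5 and 36 members held it. Elane, neutrophil elastase, was at 538 and 20.9 CPM against 0.838 and 20.96 CPM. Ms4a3, a gene of granulocyte and monocyte progenitors, was at 116 and 21.98 CPM against 1.12 and 8.05 CPM. In the first library the same 2 members, with 41477 and 26926 UMIs, held most UMIs of Mpo, Ctsg, Elane and Ms4a3, and they led Prtn3 as well. Without the 2 highest cells on each side, Mpo stood at 56.2 and 117 CPM in the members against 96.7 and 375 in the Flt3-high cells, and Ctsg at 10.6 and 50.4 against 31.4 and 301. Elane stood at 2.44 and 2.98 CPM in the members against 0.701 and 11.02. Prtn3 was less confined, as its 2 highest members held 54.7% of its 1551 UMIs and 8.36% of its 5419 UMIs. Without the 2 highest cells on each side it stood at 573 and 619 CPM against 501 and 701. These cells were picked by the gene itself and are 2 of 86 members but 2 of 703 Flt3-high cells in the first library, which lowers the members more, so no direction is read from these levels. Plac8, a gene of early myeloid and lymphoid progenitors that many cells express, was at 1017 and 589 CPM against 1034 and 1587 CPM, so the difference in the second library was not one of a few cells.

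**Figure D3:**
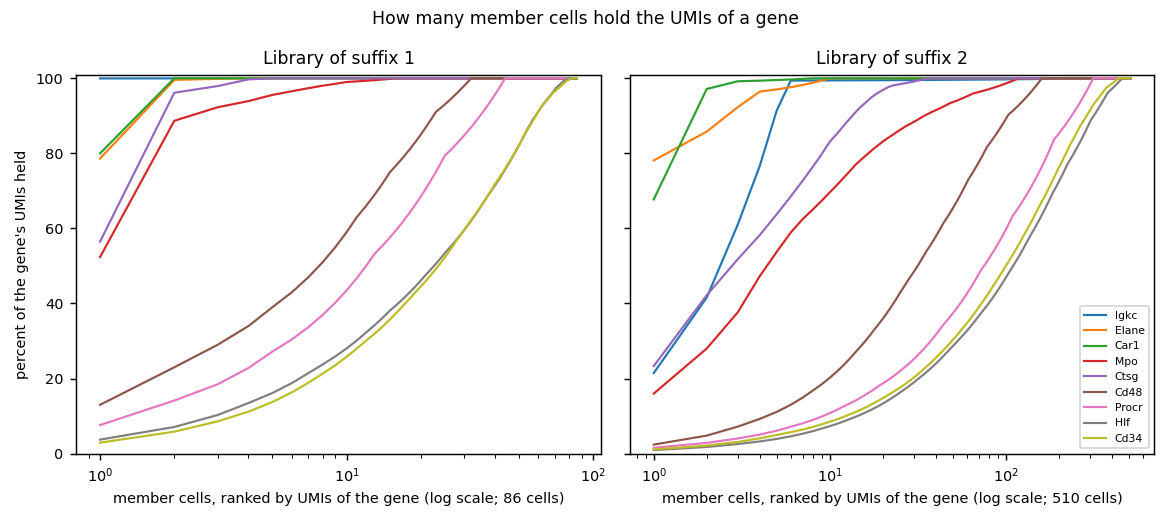
Members ranked by their UMIs of a gene (horizontal, log scale) against the share of the gene's UMIs that the cells up to that rank hold (vertical, percent), with 1 panel per library and 1 line per gene. In the first library 2 of 86 cells hold 88.7% of Mpo, 96.2% of Ctsg and 99.6% of Elane, while the lines of Cd34 and Hlf rise slowly over many cells.

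Immunoglobulin genes led the calls on the higher side, and their UMIs also came from few cells. Igkc, the kappa light chain, was at 6060.2 and 11825 CPM in the members against 2.16 and 900.1 CPM, and Jchain, the joining chain of secreted antibody, at 775 and 109.9 CPM against 0.768 and 1.72 CPM. In 7 of the 596 members (1 and 6) immunoglobulin transcripts made up between 56.6% and 69.6% of all UMIs, and the next highest member had 0.191%. Among all 3986 cells analysed 12 were rich in these transcripts (39.3% to 69.6% of their UMIs), 1 of them a Flt3-high cell. Without them 0 of the genes of the B and plasma cell list were higher, and Ighm, the mu heavy chain, turned from a mean log2 ratio of 3.70 to -2.96. The stem cell, megakaryocyte and mast cell calls given above were the same genes without these cells. Mzb1, a chaperone of antibody-secreting cells, was at 59.4 and 21.2 CPM against 0.559 and 5.15 CPM. Xbp1, the transcription factor of the secretory programme, was the 1 gene called higher of 20 of the endoplasmic reticulum list, at 116 and 121 CPM against 66.6 and 70.1 CPM, and without the immunoglobulin-rich cells 0 of the 20 were called.

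**Figure D4:**
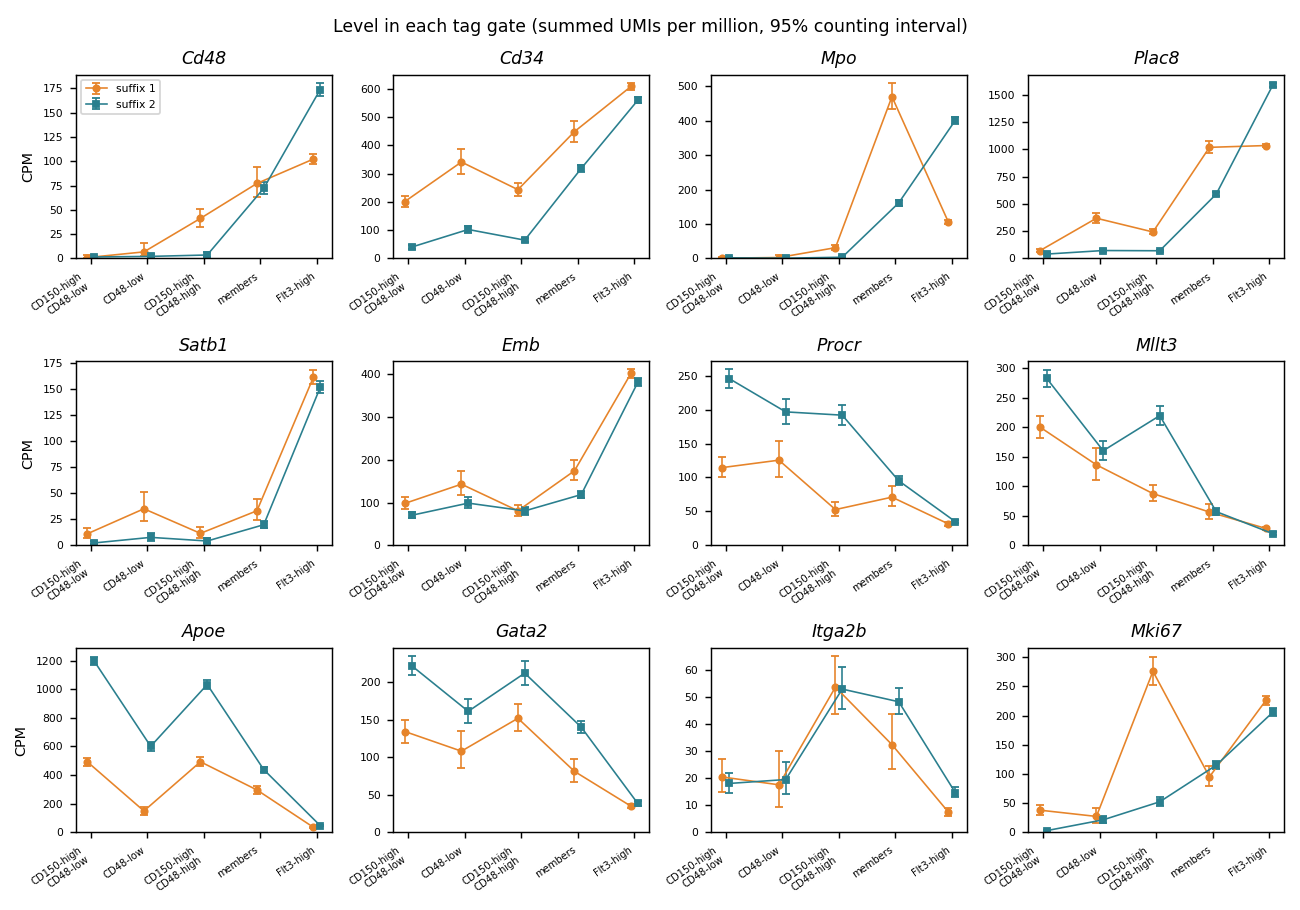
Level of 12 genes (CPM of summed UMIs, with 95% counting intervals) in 5 tag gates, ordered from CD150-high CD48-low cells to the Flt3-high cells, with 1 line per library. The members lie between the CD48-low gates and the Flt3-high cells for Procr, Mllt3 and Emb, and Mpo is near 0 to the left of them except for 31.3 CPM in CD150-high CD48-high cells of the first library.

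The nearest gate below in CD48 was that of the 270 CD48-low cells with 0 Flt3 and 0 Dntt UMIs (61 and 209), which otherwise met the same rule. Against them 169 of 8519 genes (1.98%) were higher in the members and 48 (0.563%) lower, and 14 lay past the fold in opposite directions. Both groups were chosen by CD48 tag, so the Cd48 transcript, at 77.1 and 72.1 CPM against 6.75 and 2.12 CPM, describes the choice. Of the granule and early myeloid list 8 of 14 genes were higher. Mpo stood at 469.8 and 161 CPM against 2.70 and 0.847 CPM, Ctsg at 261 and 86.3 CPM against 0 and 0.424 CPM and Plac8 at 1017 and 589 CPM against 368 and 72.5 CPM. The others were Elane, Ms4a3, Cst7, Nkg7 and Prss57. Mpo, Ctsg, Elane, Ms4a3 and Cst7 each stood under 3 CPM in the CD48-low cells of both libraries. In the first library 2 members held most UMIs of Mpo, Ctsg, Elane and Ms4a3. Without them these genes stood at 56.2, 10.6, 2.44 and 4.89 CPM there, so Elane and Ms4a3 would not reach 10 CPM. Of the S phase list 14 of 20 and of the G2 and mitosis list 9 of 19 genes were higher, with Mki67 at 94.9 and 115 CPM against 26.98 and 21.2 CPM. Stem cell genes ran the other way, 6 of 19 lower and 0 higher. Procr stood at 70.97 and 95.1 CPM against 125 and 197 CPM, Mecom, a transcription factor of long-term stem cells, at 57.1 and 65.3 CPM against 97.1 and 129.7 CPM, and Mllt3 at 56.3 and 57.1 CPM against 136 and 160.2 CPM. Ly6a, which encodes Sca-1, and Pdzk1ip1 were also lower. Members of both libraries lay below both libraries of CD48-low cells in each of the 3 genes given with values. Cpa3, at 20.1 and 34.2 CPM against 2.70 and 3.39 CPM, and Itga2b, at 32.4 and 48.3 CPM against 17.5 and 19.5 CPM, were higher, so that both genes stood above the CD48-low cells and above the Flt3-high cells. When cells above the median of the cell cycle lists were left out, 31 genes were higher and 21 lower, Plac8 and Nkg7 remained of the granule list, and Pdzk1ip1 and Mllt3 of the stem cell list. Itga2b then lost its call, as it did with thinned cells, and Cpa3 did not reach 10 CPM in both libraries and was not tested.

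By rule, the 298 CD150-high CD48-high cells with 0 Flt3 and 0 Dntt UMIs (100 and 198) differ from the members in the CD150 limit alone. Their median CD48 tag count was 359 (324 to 407) and 76 (69 to 82), against 440 (348 to 544) and 135 (122 to 157) in the members. The intervals overlapped in the first library and were apart in the second. What part this has in the gene differences was not tested. Against the CD150-high CD48-high cells 76 of 8487 genes (0.895%) were higher in the members and 40 (0.471%) lower, while 62 lay past the fold in opposite directions. Platelet genes were lower in the members: Vwf, the von Willebrand factor of megakaryocytes and of platelet-biased stem cells, stood at 0.771 and 10.4 CPM against 16.7 and 121 CPM, Cavin2 at 0 and 26.1 CPM against 30.2 and 178 CPM, and Pf4 at 22.4 and 72.98 CPM against 39.1 and 317 CPM. With Gp9, Gfi1b and Hbb-bt they made 6 of 15 tested genes of the erythroid and megakaryocyte list. Of the stem cell list 8 of 22 were lower, with Sult1a1 at 10.8 and 111 CPM against 50.6 and 690.1 CPM and Nupr1, a stress-induced chromatin protein, at 3.86 and 65.4 CPM against 14.6 and 394 CPM. Clca3a1, the gene of the tagged protein, was among these 8, at 0 and 19.1 CPM against 11.5 and 95.9 CPM. On the higher side stood 9 of 14 genes of the granule list, with Mpo at 469.8 and 161 CPM against 31.3 and 3.55 CPM, the myeloid regulators Cebpa, at 37.8 and 20.4 CPM against 9.91 and 0.888 CPM, and Gfi1, at 21.6 and 27.2 CPM against 2.61 and 8.58 CPM, and Csf3r, the G-CSF receptor, at 77.9 and 57.2 CPM against 41.7 and 32.8 CPM. The same 2 first-library members held most UMIs of Mpo, Ctsg, Elane and Ms4a3. Without them these genes stood at 56.2, 10.6, 2.44 and 4.89 CPM in the members of that library. Adhesion genes were also higher, 6 of 15, with Cd34 at 449 and 319 CPM against 243 and 64.8 CPM. Of the early lymphoid list 6 of 18 were higher, with Satb1 at 33.2 and 19.8 CPM against 11.5 and 4.14 CPM. Cell cycle genes did not separate the gates in one direction: Mki67 was at 94.9 and 115 CPM in the members against 276 and 52.1 CPM, lower in the first library and higher in the second.

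The cells were also far from uniform among themselves, and the CD48 tag ordered them. The members of each library were divided by CD48 tag count into tertiles of 28, 29 and 29 cells and of 170 cells each. Between the highest and the lowest tertile 416 of 8436 genes (4.93%) were higher and 199 (2.36%) lower, and 22 lay past the fold in opposite directions. The cells of the highest tertile were deeper, with a median of 17067 and 17283.5 UMIs against 11183 and 12917. From the lowest to the highest tertile the Cd48 transcript stood at 6.20, 31.7 and 151 CPM in the first library and 4.37, 16.9 and 162 CPM in the second. Mpo stood at 0, 12.2 and 1072 CPM in the first library and 5.24, 8.66 and 389.6 CPM in the second, and 11 of 29 and 94 of 170 cells of the highest tertile held it. Ctsg stood at 0, 0 and 599.98 CPM in the first library and 1.75, 1.97 and 211 CPM in the second. Nearly all UMIs of both granule enzymes were thus in the tertile with most CD48, but in the first library 2 cells held 88.7% of the Mpo and 96.2% of the Ctsg UMIs of all members. Plac8 was more evenly spread, at 406, 573 and 1692 CPM in the first library and 167, 310.2 and 1103 CPM in the second. Nkg7, a granule protein of cytotoxic and early myeloid cells, stood at 27.9, 97.5 and 355 CPM in the first library and 41.5, 90.9 and 253 CPM in the second. In all, 9 of 15 tested genes of the granule list were higher and Gstm1 was lower.

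Stem cell genes formed the opposite gradient, with 14 of 20 tested genes lower in the highest tertile and none higher. From lowest to highest, Procr stood at 136, 75.5 and 30.2 CPM in the first library and 163, 103 and 41.3 CPM in the second. Hlf stood at 577, 524 and 289 CPM in the first library and 323, 298 and 166 CPM in the second. In both genes every tertile lay below the one before it in both libraries. Mecom stood at 80.6, 77.98 and 28.4 CPM in the first library and 100.4, 78.7 and 30.3 CPM in the second, and Sult1a1 at 34.1, 7.31 and 0 CPM in the first library and 214, 133 and 22.03 CPM in the second. For comparison, the CD48-low cells had 125 and 197 CPM of Procr, so the lowest tertile lay closer to that gate in Procr than the members as a whole did. Cd34 had no common course, at 431, 495 and 426 CPM in the first library and 196, 279 and 435 CPM in the second. Of the erythroid and megakaryocyte list 2 of 14 tested genes were higher, Gata1 and Itga2b, and the median log2 ratio of the list was -0.03. Both tested genes of the basophil and mast cell list, Cpa3 and Hdc, were higher. Itga2b stood at 18.6, 24.4 and 46.2 CPM in the first library and 29.7, 45.3 and 63.7 CPM in the second, and Cpa3 at 6.20, 4.87 and 39.1 CPM in the first library and 2.18, 7.48 and 77.4 CPM in the second.

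Of the cell cycle lists, 18 of 20 S phase genes and 19 of 20 G2 and mitosis genes were higher in the highest tertile. Mki67 stood at 15.5, 17.1 and 197 CPM in the first library and 26.6, 81.1 and 203 CPM in the second, and Top2a at 18.6, 80.4 and 263 CPM in the first library and 57.6, 137 and 374 CPM in the second. By the summed lists 10.7% (2.27% to 28.2%) and 14.1% (9.26% to 20.3%) of the lowest tertile lay above the median of the tag gate, 20.7% (7.99% to 39.7%) and 26.5% (20.01% to 33.8%) of the middle and 55.2% (35.7% to 73.6%) and 67.6% (60.1% to 74.6%) of the highest. After removal of these cells 94 genes were higher and 134 lower. The mean log2 ratio of Mpo was then 2.51 instead of 5.74, that of Ctsg 1.34 instead of 5.08 and that of Elane 0.17 instead of 4.59, while Cd48 stood at 3.21 instead of 3.45 and Procr at -1.24 instead of -1.81. Of the stem cell list 11 genes were still lower. With the cells thinned to 9000 UMIs, 356 genes were higher and 193 lower, 295 and 121 of them shared with the counts as deposited.

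**Figure D5:**
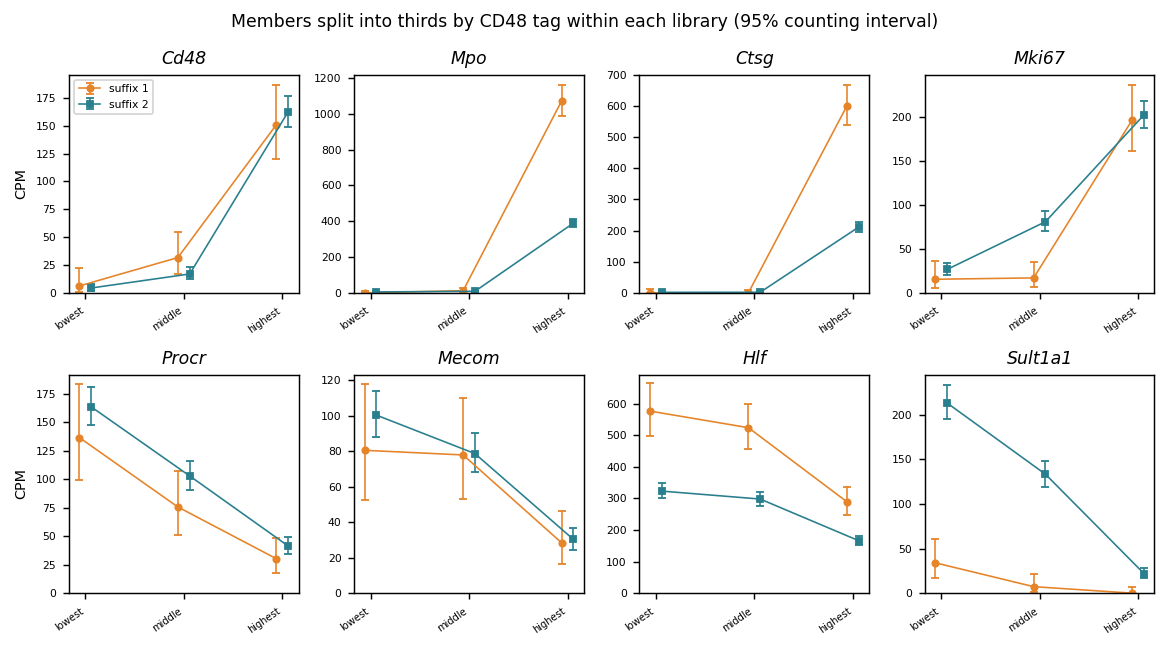
Level of 8 genes (CPM of summed UMIs, with 95% counting intervals) in the members divided within each library into tertiles by CD48 tag count, from lowest to highest, with 1 line per library. Cd48, Mpo, Ctsg and Mki67 are highest in the last group, while Procr, Mecom, Hlf and Sult1a1 are lowest there in both libraries.

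The genes that set the highest CD48 tertile apart include granule enzymes, Itga2b and Cpa3, and the 150 bases before the start of some of them are shown so that their proximal promoters can be compared. The sequences are those of RefSeq on GRCm38.p6, read 5′ to 3′ on the strand of the gene. Capitals mark the core words searched on both strands for 4 factors of blood cells: GAGGAA for PU.1, AGATAA for GATA factors, TGTGGT for RUNX factors and TTGCNNAA for C/EBP factors. Over all 27025 promoters of the same length these words occurred in 14.4%, 5.76%, 8.53% and 5.48%. Mpo (chr11:87793634-87793783, plus strand) held none of them, and neither did Ms4a3, whose sequence is not shown. Ctsg (chr14:56102575-56102724, minus strand) held 1 RUNX word from -79 to -74, counted from the first transcribed base. Elane (chr10:79886162-79886311, plus strand) held 1 PU.1 word from -85 to -80. Itga2b (chr11:102469884-102470033, minus strand) held PU.1 words from -126 to -121 and from -44 to -39. Cpa3 (chr3:20242182-20242331, minus strand) held a GATA word from -46 to -41 and a RUNX word from -73 to -68. A word found is a match of letters, not a bound site, and no binding was measured in these samples.
Mpo: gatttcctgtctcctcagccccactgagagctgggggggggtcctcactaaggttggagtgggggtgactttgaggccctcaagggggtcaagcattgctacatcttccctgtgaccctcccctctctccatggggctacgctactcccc
Ctsg: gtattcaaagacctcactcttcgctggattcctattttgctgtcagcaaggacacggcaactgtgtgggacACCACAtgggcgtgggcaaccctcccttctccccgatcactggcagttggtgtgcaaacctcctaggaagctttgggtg
Elane: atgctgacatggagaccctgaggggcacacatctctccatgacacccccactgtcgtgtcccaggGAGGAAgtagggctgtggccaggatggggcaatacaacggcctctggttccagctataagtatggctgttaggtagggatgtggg
Itga2b: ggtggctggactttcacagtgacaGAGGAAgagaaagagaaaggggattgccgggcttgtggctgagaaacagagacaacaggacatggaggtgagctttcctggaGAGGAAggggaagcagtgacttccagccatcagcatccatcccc
Cpa3: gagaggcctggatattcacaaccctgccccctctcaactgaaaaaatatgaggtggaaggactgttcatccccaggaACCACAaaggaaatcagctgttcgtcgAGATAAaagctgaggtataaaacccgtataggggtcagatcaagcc

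The members also differed with their CD150 tag, although every member lay under the CD150 limit. Between the highest and the lowest CD150 tertile (29 and 28 cells, and 169 and 170) 57 of 8466 genes (0.673%) were higher and 59 (0.697%) lower, and 24 lay past the fold in opposite directions. Of the erythroid and megakaryocyte list 7 of 14 genes were higher and of the stem cell list 7 of 19. From the lowest to the highest tertile Apoe stood at 85.2, 229 and 588 CPM in the first library and 194, 379.6 and 714 CPM in the second. Gata2 stood at 25.1, 70.4 and 150.03 CPM in the first library and 83.9, 141 and 189.99 CPM in the second, and Itga2b at 10.03, 34.2 and 52.5 CPM in the first library and 30.03, 46.7 and 66.3 CPM in the second. In each of these genes every tertile lay above the one before it in both libraries. Car2, a carbonic anhydrase of early erythroid cells, stood at 524, 647 and 908 CPM in the first library and 469, 631 and 904 CPM in the second, and Pf4 at 12.5, 20.1 and 35.01 CPM in the first library and 27.7, 30.8 and 154 CPM in the second. Car1, the leading gene on the higher side, is not read further, since 614 of its 632 UMIs in members of the second library came from 2 cells. Of the granule list 8 of 14 genes were lower with more CD150 tag: Mpo stood at 1369, 90.5 and 45.01 CPM in the first library and 399, 94.9 and 10.2 CPM in the second, and Ctsg at 815, 14.1 and 15.004 CPM in the first library and 236, 33.7 and 1.06 CPM in the second. In the first library these values again rest on the 2 cells that hold 88.7% and 96.2% of the UMIs. All 6 tested immunoglobulin genes were lower too and are not read further either, since 1 member of the first library held 99.96% of its Igkc UMIs and 5 members of the second held 91.5%. The median depth of the tertiles was 12796 and 14843 UMIs in the highest against 13081.5 and 12945.5 in the lowest.

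Whether stem cell and lineage transcripts stood in the same cells was read after every cell had been thinned to 9000 UMIs, which left 545 members and took out 51 shallower ones. A UMI of at least 1 of 4 granule genes (Mpo, Elane, Ctsg, Ms4a3) was found in 121 members, 22.2% (18.8% to 25.9%). At least 1 of 5 erythroid or megakaryocyte genes (Gata1, Klf1, Car1, Pf4, Itga2b) was found in 47.0% (42.7% to 51.3%), and at least 1 of 4 stem cell genes (Hlf, Procr, Mecom, Fgd5) in 87.9% (84.9% to 90.5%). Of the 121 members with a granule transcript, 92 also held a stem cell transcript and 29 did not. All 3 kinds were found in 8.81% (6.57% to 11.5%), and stem cell transcripts alone in 39.3% (35.1% to 43.5%). In the Flt3-high cells the order was reversed for the lineage genes, with granule transcripts in 45.5% (42.9% to 48.1%), erythroid or megakaryocyte transcripts in 15.3% (13.5% to 17.3%) and stem cell transcripts in 78.1% (75.8% to 80.2%). The libraries differed in the granule share of the Flt3-high cells, 33.3% (29.8% to 37.0%) and 56.6% (53.0% to 60.2%), while that of the members was 23.7% (14.7% to 34.8%) and 22.0% (18.3% to 26.0%), so that the intervals of both groups overlapped in the first library and were apart in the second. For comparison, CD150-high CD48-low cells, the gate of stem cells, taken without a Flt3 or Dntt limit, showed granule transcripts in 3.28% (1.92% to 5.19%). In CD48-low cells the share was 2.34% (0.763% to 5.37%). Transcripts free in solution were not measured. The erythroid or megakaryocyte share was 24.1% (20.5% to 28.0%) and 32.2% (26.0% to 39.0%) in these gates. Median depths before thinning were 14021.5 UMIs in the members, 13334 in the CD150-high CD48-low cells and 11177.5 in the CD48-low cells. Without thinning, the shares in the members were 27.3%, 56.0% and 95.1%.

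The libraries differed in the members as well as in their number. Over 8847 genes tested 112 (1.27%) were higher and 116 (1.31%) lower in the library of suffix 2. Of the granule list 12 of 17 genes were lower in the second library, with Elane and Ms4a3 among the 5 genes with the lowest log2 ratios overall (-4.15 and -1.97). Mpo, Ctsg, Elane and Ms4a3 are among the 12, and the 2 cells named above hold most of their UMIs in the first library, so that their levels there rest on 2 cells. Without the 2 highest members of each gene in each library, Mpo stood at 56.2 and 117 CPM and Ctsg at 10.6 and 50.4. Elane stood at 2.44 and 2.98 and Ms4a3 at 4.89 and 11.8. Prtn3 and Plac8, also among the 12, stood at 573 and 619 and at 734 and 545. The 2 cells are a larger share of 86 members than of 510, so no direction is read from these levels. Of the erythroid and megakaryocyte list 6 of 16 were higher and 0 lower: Pf4 at 22.4 and 72.98 CPM, Vwf at 0.771 and 10.4 and Cavin2 at 0 and 26.1, besides Gp5, Hbb-bt and Car1. Of the stem cell list Gata2, Sult1a1, Clca3a1, Nupr1 and Gda were higher in the second library and Hlf and Robo4 lower, with Clca3a1 at 0 and 19.1 and Hlf at 435 and 252. The genes of MHC class II presentation Cd74, H2-Aa, H2-Ab1 and H2-Eb1 were higher, with Cd74 at 259 and 492. Of the S phase list 0 of 20 genes and of the G2 and mitosis list 1 of 20 passed the fold. The 5 genes with the highest ratios were Ighg1, Ighg2b, Plscr2, Prg2, the eosinophil major basic protein, and Aldh1a1, and 646 of the 648 UMIs of Prg2 in the second library came from 2 cells. The CD150 limit lay at 40 tags in the first library and 407 in the second, the gates thus held different tag ranges, and the part of this in the gene differences was not tested.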

How the data were processed

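LSK cells of young and old mice were stained with DNA-tagged antibodies and sequenced as 1 droplet library per age. The authors deposited UMI counts per gene and cell, made with Cell Ranger 3.1.0 (count and aggr) on mm10 (GRCm38) per the submitters' processing notes and the study's methods; the study's methods describe aggr as the step that normalised the libraries, so the counts may have been thinned to a like depth. They also deposited tag counts on a log10 scale per the file headers and values, with 0 tags as minus infinity, and these were turned back into tag counts. From there on, cells with under 10% mt- UMIs, over 1500 genes and tag values were kept. Barcode suffixes name the libraries.

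UMIs were summed per gate and library and scaled to CPM over all genes. Genes at 10 CPM or more in one gate in both libraries were tested against a 1.5-fold limit on the ratio with 10 CPM added, in both libraries. Intervals are exact Poisson for CPM, conditional binomial for ratios and Clopper-Pearson for shares, at 95%. Medians have order-statistic intervals. A share of 0 allows 3 counts of the total. Tertiles were cut within each library by tag count. For co-detection and 1 alternative, cells were thinned to 9000 UMIs (seed 1). Doublets were called with scrublet through scanpy 1.11.5. Scripts ran in python 3.11.15 with numpy 2.4.6, scipy 1.17.1 and pandas 2.3.3 and were tested on simulated data.

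The named genes are those of the lists, the 12 highest and 12 lowest called against the Flt3-high cells and the 5 highest and 5 lowest elsewhere. Genes named for promoters, for few cells holding their UMIs, for opposite directions between libraries or among the calls without Dntt were chosen after their values were seen. Further genes of the lists are counted in them but not reported here by name, and the stem cell genes of the co-detection count were limited to 4 for this reason. The members and the gene lists were chosen with earlier results of these data known. Total counts of the kept cells set the precision: the rarer a gene and the fewer the cells, the wider its interval. The alternatives tried were other scalings, thinning, tag limits, Flt3 and Dntt limits, cell filters, added CPM, pooled or single libraries, and leaving out doublets, cycling cells, immunoglobulin-rich cells or the highest cells of a gene.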

Additional observations from a re-analysis of the deposited data

Results flagged for a closer look

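Some genes among those named in the text passed 1.5-fold in opposite directions in the 2 libraries, and the difference between the libraries was not tested, since each has no replicate. Against the Flt3-high cells the log2 ratios in the libraries of suffix 1 and 2 were 2.06 and -1.26 for Mpo, 2.48 and -1.76 for Ctsg, 1.21 and -1.06 for Lgals1 (the lectin galectin-1), 0.92 and -0.65 for Ms4a6c and 0.60 and -0.61 for Nkg7. These were the 5 genes of that comparison that lay on opposite sides. Without the 2 highest cells on each side (2 of 86 members and 2 of 703 Flt3-high cells in the first library, an unequal share) the first-library values were -0.69, -1.01, 0.05, 0.40 and 0.23, while the second-library values were -1.60, -2.36, -1.19, -0.71 and -0.64.

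Against the CD48-low cells Ighm had log2 ratios of -1.45 and 6.05, and the 7 immunoglobulin-rich members were divided 1 and 6 between the libraries. The CD48-low group held such a cell too, since leaving them out took it from 270 to 269 cells. Against the CD150-high CD48-high cells Car1 had -3.39 and 3.096, with 614 of its 632 UMIs in members of the second library in 2 cells. Mki67 had -1.45 and 1.01 in the same comparison, where the share of CD150-high CD48-high cells above the median of the cell cycle lists was 48% (37.9% to 58.2%) in the first library and 13.1% (8.76% to 18.6%) in the second, against 29.1% and 36.1% of the members.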

How the results depend on the processing

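Of 758 results for single genes under an alternative, 729 kept their direction and their side of the 1.5-fold limit, 24 kept the direction without passing it in both libraries, and 5 reversed. Those 5 were Ighm against the Flt3-high cells without immunoglobulin-rich cells (-2.96) and without its highest cell (-0.15), Hbb-bt against the CD48-low cells with 1 tag limit for both libraries (0.31), and, in the first library without the 2 highest cells, Mpo (-0.69) and Ctsg (-1.01). The genes scored were the most extreme calls of their comparison, Flt3 and Dntt among them, besides the 5 genes on opposite sides. A gene under the 10 CPM filter in an alternative was left out, and some alternatives only loosen the rule. A high share kept was therefore largely built in and is no measure of robustness. Counts of called genes moved more, and are given as higher and lower in the members. Against the Flt3-high cells they were 254 and 189 with 1 CPM added, 267 and 174 with pooled counts, 234 and 237 with suffix 1 only, 289 and 192 with suffix 2 only, 52 and 56 with the 50th percentile for both tags, 201 and 156 with 4 or more Flt3 UMIs, 27 and 13 with 0 Dntt UMIs, 177 higher without mitochondrial and ribosomal protein genes and 300 lower with the stricter cell filter. Against the CD48-low cells they were 281 and 138 with 1 CPM added, 349 and 212 pooled, 534 and 356 with suffix 1 only, 470 and 293 with suffix 2 only, 260 and 266 with the 50th percentile, 1598 and 258 with the stricter filter, 31 and 21 without cycling cells, and 114 lower without mitochondrial and ribosomal genes. Against the CD150-high CD48-high cells they were 126 and 104 with 1 CPM added, 135 and 201 pooled, 263 and 319 with suffix 1 only, 356 and 380 with suffix 2 only, and 246 and 564 with the stricter filter. The lower count there was 82 without mitochondrial and ribosomal genes, 64 thinned, 124 with the 50th percentile and 91 without cycling cells. A library alone, pooled counts or a smaller added CPM loosens the rule by construction, and the stricter filter left 31 members. For the other changes the cause was not tested. Alternatives chosen after seeing the data were the 1 tag limit, which gave 76 lower against the CD48-low and 80 lower against the CD150-high CD48-high cells, the immunoglobulin-rich and highest-cell settings, and those on the CD48 tertiles, where 94 genes were higher without cycling cells. Between the libraries 350 were higher and 432 lower with 1 CPM added.

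The members made up 21.5% of cells thinned to 9000 UMIs, 3.36% with the 50th percentile, 8.45% with the stricter filter, and 5.74% and 20.5% in the single libraries. The difference in median log10 tags from the Flt3-high cells was -0.57 for CD48, 0.74 for CD150, 0.55 for CLCA3A1 and -0.34 for unmapped tags over both libraries. With suffix 1 only it was -0.23, 0.51, 0.11 and -0.14, with suffix 2 only -0.26 for unmapped tags, and with the 50th percentile -0.28, 0.18 and 0.37 for the 3 antibodies. Without thinning, co-detection was 27.3% for granule, 56.0% for erythroid or megakaryocyte, 95.1% for stem cell and 24.3% for granule and stem cell genes, and with suffix 1 only it was 40.8% for erythroid or megakaryocyte and 92.1% for stem cell genes. Mpo in the class with 0 against that with 5 or more Flt3 UMIs had a mean log2 ratio of 0.26 and, thinned, of 1.57. Gates were paired by library, since each ratio was formed within a library. Each age is 1 library, so no test across samples was possible. Depth limits rare genes most: with 86 members in the first library, 1 UMI there is a level near 0.771 CPM.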
